A study of Mus musculus with 7 samples.

Results

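The 10 genes described here encode transcription factors that hold mouse embryonic stem (ES) cells in the undifferentiated state or, for Zfp42, mark it. They are Pou5f1, Nanog, Sall4, Zfp42, Klf2, Klf4, Klf5, Tfcp2l1, Tbx3 and Prdm14. They were chosen by name, with earlier results of these data known. All 10 were measured among 18194 genes on a mouse expression array. Ect, End and Pme were ectoderm, endoderm and paraxial mesoderm differentiated in culture from the ES cell line SK7. The adult organs were brain, liver and skeletal muscle (Sk_muscle) of male ICR mice aged over 9 weeks. SK7_ESC was the undifferentiated SK7 line. SK7 is a male line with a GFP reporter driven by the Pdx1 promoter, so all 4 cultured samples carried this transgene and came from 1 line. The labels give the strain ICR for all 7 samples, the cultured ones included. The sources used here do not give the number of animals behind each tissue. There was 1 array per sample, so no spread could be estimated and no test was run, and each difference below is described by its size alone.

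Pou5f1 (Oct3/4) and Nanog belong to the core circuit of pluripotency, in which a few DNA-binding proteins occupy their own and each other's regulatory regions. Sall4 is a zinc finger protein that interacts with this core. Klf2, Klf4, Klf5, Tfcp2l1, Tbx3 and Prdm14 support the naive state. This state resembles the inner cell mass, and leukemia inhibitory factor (LIF) helps mouse ES cells to keep it. Zfp42 (Rex1) is the classical reporter of the naive state. Several of these factors also serve elsewhere in the body. Klf2 acts in endothelium and lymphocytes, Klf4 and Klf5 in epithelia and smooth muscle, and Tbx3 in limb, heart and liver development.

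The values are linear array signals, which the paper describes as globally scaled to an average of 100 per array. Over all probe sets the deposited values averaged 141.2 in Brain, 162.6 in SK7_ESC, 191.9 in Liver and 204.2 in Sk_muscle. The arrays thus differed in average. Background was set at a signal of 50. Genes were called higher or lower where the brighter signal was above 50 and at least 2 times the dimmer one, with dimmer signals under 50 raised to 50, and a fold against a raised signal is a lower bound. The number of genes above background per array ran between 7813 (Liver) and 9083 (Brain). Neuron markers were above background in Brain for 7 of 7 genes, hepatocyte markers in Liver for 7 of 7, muscle fibre markers in Sk_muscle for 7 of 7, neural progenitor markers in Ect for 6 of 7 and definitive endoderm markers in End for 7 of 7. In Pme, 3 of 8 mesoderm markers were above background, Pdgfra at 1062, Foxc1 at 82.7 and Kdr at 66.7, of which Pdgfra was called higher than in SK7_ESC. Meox1, Tbx6, Tcf15, Foxc2 and Mesp1 were not, at 16.0, 17.7, 29.1, 13.6 and 33.3. Some markers were also bright in other arrays. In Sk_muscle 4 of 7 hepatocyte markers were above background, with Cyp2e1 at 351.5 and Alb at 303.9. The hepatocyte marker Ttr had 4212 in Brain, and the neuron marker Stmn2 had 1275 in SK7_ESC. The source of these signals was not tested. In these bulk samples fewer cells of a type and less RNA per cell cannot be told apart.

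The promoter sequences of Pou5f1, Nanog, Zfp42 and Klf4 are shown first. They hold letters that match motifs of POU, nuclear receptor, Sp or Klf proteins, and they differ widely in CpG content. RefSeq promoters (GRCm38.p6) were at hand for 6 of the 10 genes, and Sall4, Klf5, Tbx3 and Prdm14 were not matched. For each gene the 250 bases before the most upstream start site are considered. The Pou5f1 window lies at chr17:35505782-35506031 on the plus strand, the Nanog window at chr6:122707239-122707488 on the plus strand, the Zfp42 window at chr8:43307010-43307259 on the minus strand and the Klf4 window at chr4:55532476-55532725 on the minus strand. All are written 5′ to 3′ along the gene. Capitals mark AGGTCA and GGGCGG in Pou5f1, TTTGCAT in Nanog and Zfp42, and GGGCGG in Klf4, on either strand.
Pou5f1: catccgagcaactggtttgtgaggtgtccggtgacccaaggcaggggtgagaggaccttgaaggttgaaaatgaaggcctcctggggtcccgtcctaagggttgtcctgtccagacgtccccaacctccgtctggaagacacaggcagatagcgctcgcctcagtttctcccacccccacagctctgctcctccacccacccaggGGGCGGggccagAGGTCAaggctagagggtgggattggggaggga
Nanog: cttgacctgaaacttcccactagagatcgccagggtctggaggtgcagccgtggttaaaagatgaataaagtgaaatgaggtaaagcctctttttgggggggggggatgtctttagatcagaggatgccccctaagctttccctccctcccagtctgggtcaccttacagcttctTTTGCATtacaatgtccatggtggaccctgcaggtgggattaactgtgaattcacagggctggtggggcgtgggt
Zfp42: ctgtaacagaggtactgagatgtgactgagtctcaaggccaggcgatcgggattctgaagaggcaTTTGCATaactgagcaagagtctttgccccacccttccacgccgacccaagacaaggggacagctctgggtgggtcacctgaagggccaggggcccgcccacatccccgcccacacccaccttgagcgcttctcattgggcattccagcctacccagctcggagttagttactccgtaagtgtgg
Klf4: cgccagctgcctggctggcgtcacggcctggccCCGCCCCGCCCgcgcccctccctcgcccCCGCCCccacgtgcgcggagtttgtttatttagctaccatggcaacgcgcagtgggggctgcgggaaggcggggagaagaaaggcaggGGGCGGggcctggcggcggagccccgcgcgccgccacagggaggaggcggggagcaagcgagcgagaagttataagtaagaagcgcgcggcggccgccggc
TTTGCAT is the core of the octamer that POU factors such as Oct3/4 bind. It lay 75 bases before the start in Nanog and 185 bases before it in Zfp42, and 4.13% of 32851 promoter windows of this length hold it on either strand. In Nanog it is followed directly by TACAATG, which resembles the binding site of a Sox factor. AGGTCA, the half-site of nuclear receptors such as Esrrb and Nr5a2, lay 33 bases before the start in Pou5f1, was also found once in Nanog, and is held by 14.0% of windows. The GC box GGGCGG, which Sp and Klf proteins bind, was found 4 times in Klf4, 2 times in Klf2, 2 times in Zfp42 and 1 time in Pou5f1, against 32.7% of windows with at least 1. The CACCC box CCACCC was found 4 times in Pou5f1, 2 times in Zfp42 and 1 time in Klf2 (28.1% of windows). The TATA box TATAAA was found 1 time in Tfcp2l1, 28 bases before the start (12.4% of windows). No site of 1 motif overlapped a site of another in these windows. Sites of the same motif may overlap, as 2 of the 4 in Klf4 and 2 of the CACCC boxes in Pou5f1 do. A match describes letters only. The Klf4 window was 74% G and C, against a median of 52.4% over all windows, and the shares are not matched for this.

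The number of CpG dinucleotides ran from 3 in Nanog to 32 in Klf4. Pou5f1 had 8, Zfp42 9, Tfcp2l1 16 and Klf2 29, and the median over all windows was 6, with quartiles of 2 and 16. Klf2 and Klf4 thus exceeded 93.2% and 95.4% of windows, and Nanog exceeded 29.0%. Klf2 and Klf4 kept the largest shares of their ES cell signal in an adult tissue, 45.0% and 36.1% in Sk_muscle, whereas Pou5f1, Nanog and Zfp42 were under background in every adult tissue. Tfcp2l1, with 16 CpG dinucleotides, was also under background in every adult tissue. Tbx3 came next after Klf4, with 33.0% in Liver, but its promoter was not matched, nor was that of Klf5. The CpG values cover 6 genes and were set beside the signals after the signals had been seen.

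**Figure D1:**
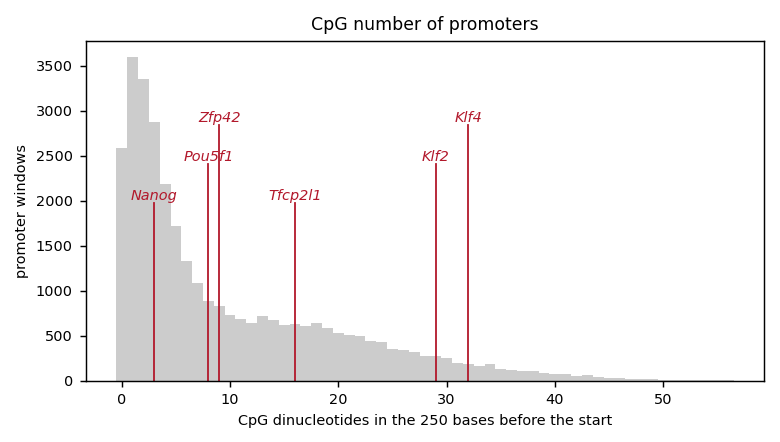
Number of promoter windows (vertical axis) by the number of CpG dinucleotides in the 250 bases before the start site (horizontal axis), for all 32851 windows (grey bars) with a red line at each of 6 pluripotency factors. Nanog, Pou5f1 and Zfp42 lie between 3 and 9, and Klf2 and Klf4 at 29 and 32.

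All 10 factors were above background in SK7_ESC, where 44.4% of all genes were. In Ect, 1 of the 10 was still above background, in End 5 and in Pme 4, against 47.2%, 45.5% and 47.4% of all genes. In at least 1 layer 6 of 10 were above background, where 53.1% of all genes were. Called lower than in SK7_ESC were 10 of 10 in Ect (4.89% of all genes), 9 of 10 in End (3.81%) and 8 of 10 in Pme (4.55%). None of the 10 was called higher in any layer (0 of 10), where 6.63%, 4.89% and 6.75% of all genes were. Over the 10 factors the median log2 ratio to SK7_ESC was -3.89 for Ect, -2.50 for End and -3.80 for Pme, against -0.06, -0.08 and -0.09 over the 8083 genes above background in SK7_ESC. Most ratios behind the medians of the 10 factors are bounds set by the SK7_ESC signal, so the medians are bounds too and are not compared between arrays. The 3 comparisons share the SK7_ESC array. The factors were chosen for their known role in ES cells. Counts against SK7_ESC, here and below, thus describe them and are no independent finding. Called lower in all 3 layers were 8 of 10, all but Sall4 and Tbx3, against 2.03% of all genes. The same 8 factors were lower in all 6 other arrays, against 1.19% of all genes.

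**Figure D2:**
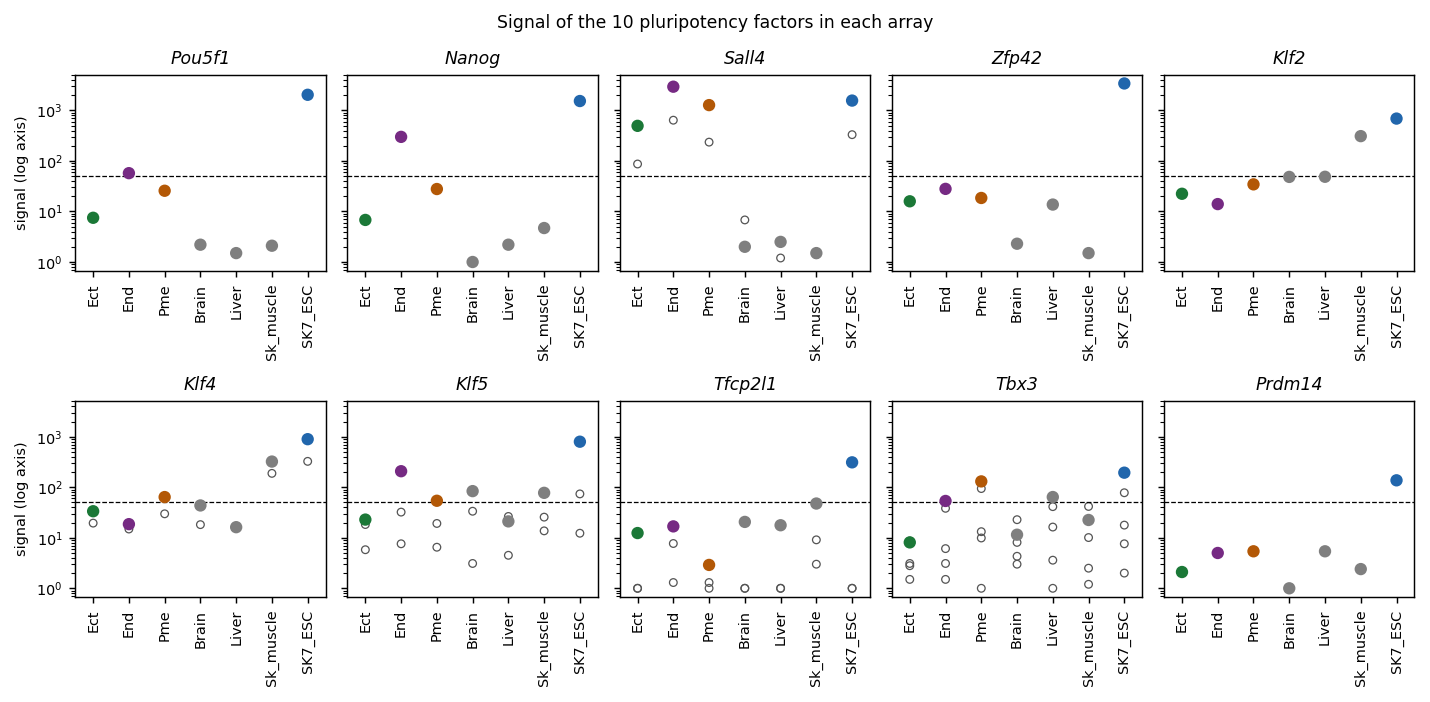
Signal (log axis, signals under 1 drawn as 1) of the 10 factors in the 7 arrays, 1 array each, with filled points for the probe set used, open points for other probe sets of the gene and a dashed line at the background of 50. SK7_ESC is the highest filled point in every panel except that of Sall4, where End is highest at 2947.

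Pou5f1 and Nanog, the core factors, were under background in Ect and Pme, whereas in End Nanog was well above it and Pou5f1 just above it. Pou5f1 had a signal of 7.5 in Ect, 57.3 in End, 25.7 in Pme, 2.2 in Brain, 1.5 in Liver and 2.1 in Sk_muscle, against 2038 in SK7_ESC. It was the highest in SK7_ESC by a wide margin, and End, at 2.81% of the ES cell signal, was the sole other array above background. The decrease was 35.6-fold in End and at least 40.8-fold in Ect, in Pme and in each adult tissue. End was at least 1.15-fold above Ect and above Pme for Pou5f1, which is not called, and with a background of 100 Pou5f1 was under background in End. Nanog, a homeodomain protein that holds ES cells back from differentiation, had 6.8 in Ect, 299.5 in End, 27.8 in Pme, 0.7 in Brain, 2.2 in Liver and 4.7 in Sk_muscle, against 1533 in SK7_ESC. In End it kept 19.5% of the ES cell signal, and the decrease there was 5.12-fold, against at least 30.7-fold in the other 5 arrays. Within the layers Nanog was at least 5.99-fold higher in End than in Ect and than in Pme. Pou5f1 and Nanog were above background in SK7_ESC and End alone, a pattern held by 49 genes or 0.269% of all genes. With a background of 20 both were above it in Pme too, at 25.7 and 27.8.

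Sall4 went another way. It had 495.0 in Ect, 2947 in End, 1274 in Pme, 2.0 in Brain, 2.5 in Liver and 1.5 in Sk_muscle, against 1565 in SK7_ESC. All 4 cultured samples were far above background, and the 3 adult tissues were near 0. The order was End, SK7_ESC, Pme and Ect, and the neighbours End and SK7_ESC, as well as SK7_ESC and Pme, lay less than 2-fold apart. Sall4 was 1.88-fold higher in End than in SK7_ESC, 1.23-fold lower in Pme and 3.16-fold lower in Ect. After quantile normalization the difference in End was 2.13-fold and was called. Between the layers, End was 5.95-fold above Ect and 2.31-fold above Pme, and Pme 2.57-fold above Ect. The second Sall4 probe set, dimmer, had 87.0 in Ect, 640.2 in End, 235.6 in Pme and 331.1 in SK7_ESC, which is the same order. In the adult tissues Sall4 was at least 31.3-fold lower than in SK7_ESC. Signals above background in all 4 cultured samples and in no adult tissue were found for 420 genes, or 2.31% of all genes, and Sall4 was the sole factor of the 10 among them.

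Zfp42, Tfcp2l1 and Prdm14 exceeded background in SK7_ESC alone of the 7 arrays, as did 0.984% of all genes. Zfp42, a zinc finger gene derived from Yy1, had 15.9 in Ect, 28.0 in End, 18.5 in Pme, 2.3 in Brain, 13.7 in Liver and 1.5 in Sk_muscle, against 3415 in SK7_ESC. The decrease was at least 68.3-fold in each other array, and of all 18194 genes it had the third largest decrease in Ect and in Pme and the second largest in End. The rank depends on the ES cell signal, because the bound of a gene under background is set by it. Tfcp2l1, a grainyhead-related factor that acts downstream of LIF and Wnt signalling, had 12.4 in Ect, 16.8 in End, 2.9 in Pme, 20.6 in Brain, 17.7 in Liver and 47.6 in Sk_muscle, against 311.0 in SK7_ESC. It was thus at least 6.22-fold lower in each of them, and its signal in Sk_muscle lay just under background. The remaining probe sets of Tfcp2l1 had at most 0.5 in SK7_ESC and at most 9.1 in any array, so its level rests on 1 probe set of 3, and with the geometric mean of all 3 it was under background in every array. Prdm14, a PR-domain protein that represses differentiation genes and DNA methyltransferases, had 2.1 in Ect, 5.0 in End, 5.4 in Pme, 0.8 in Brain, 5.4 in Liver and 2.4 in Sk_muscle, against 137.1 in SK7_ESC. Its ES cell signal was the dimmest of the 10, which limits the decrease that could be seen to at least 2.74-fold. With a background of 100 the bound was 1.37-fold and Prdm14 was called in no array.

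The 3 Krüppel-like factors, which bind GC-rich and CACCC boxes and can partly replace each other in ES cells, were all lower in the layers but to different degrees. Klf2 had 22.4 in Ect, 14.0 in End, 34.4 in Pme and 689.0 in SK7_ESC, and was at least 13.8-fold lower in each layer. Klf4 had 33.5 in Ect, 18.6 in End, 63.9 in Pme and 893.5 in SK7_ESC. The decrease was at least 17.9-fold in both Ect and End, and 14.0-fold in Pme. With its other probe set Klf4 was under background in all 3 layers, at 19.5, 14.9 and 29.8, against 325.3 in SK7_ESC. Klf5 had 22.9 in Ect, 207.6 in End, 54.0 in Pme and 796.6 in SK7_ESC. It kept 26.1% of the ES cell signal in End and was 3.84-fold lower there, 14.8-fold lower in Pme and at least 15.9-fold lower in Ect. Klf5 was 3.84-fold higher in End than in Pme and at least 4.15-fold higher than in Ect. These values rest on 1 bright probe set of 3, whose identifier marks sequence shared by transcripts. The next one had 18.3 in Ect, 32.2 in End, 19.2 in Pme and 73.8 in SK7_ESC, and with it Klf5 was at least 1.48-fold lower, which is not called. With the geometric mean of the 3 the bound was 1.80-fold, also not called.

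Tbx3, a T-box repressor that upholds Nanog expression and also acts in mesoderm and endoderm, was the factor best kept in Pme after Sall4. It had 8.1 in Ect, 53.5 in End, 130.5 in Pme and 194.2 in SK7_ESC. Pme, at 67.2% of the ES cell signal, lay 1.49-fold below SK7_ESC and was not called. End was 3.63-fold lower and Ect at least 3.88-fold lower than SK7_ESC, and Pme was 2.44-fold above End and at least 2.61-fold above Ect. The second brightest of 5 probe sets had 8.6 in Ect, 38.3 in End, 94.2 in Pme and 77.8 in SK7_ESC, so that with it the signal was highest in Pme. The decreases of Tbx3 were no longer called with the geometric mean of its 5 probe sets, which was under background in every array, or with a background of 100, where the bound was 1.94-fold. Fibroblast and feeder markers were also bright in Pme. Of 8 such genes 6 were above background in Pme, with a summed signal of 9904, against 2997 in Ect, 1804 in End and 1676 in SK7_ESC. Their part in the Tbx3 and Klf4 signals of Pme was not tested.

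**Figure D3:**
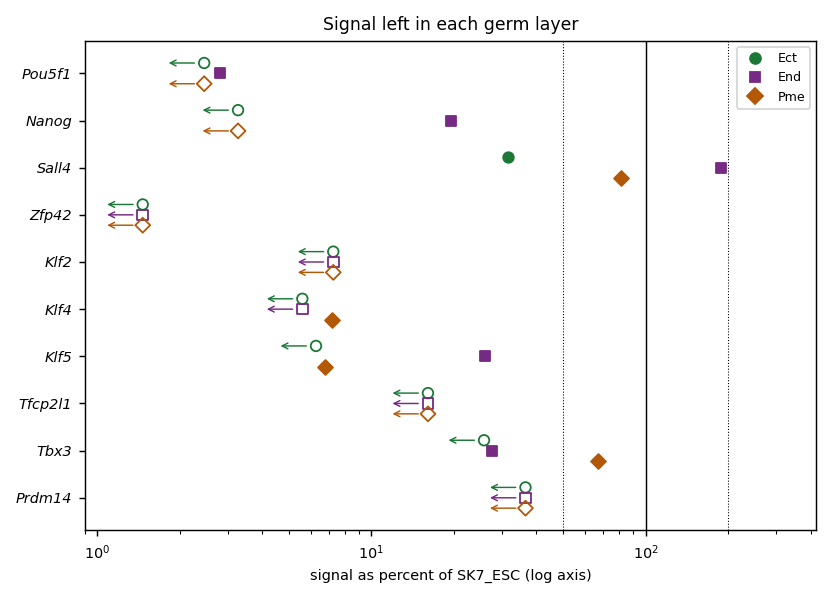
Signal left in Ect, End and Pme as percent of the SK7_ESC signal (horizontal log axis) for the 10 factors, 1 array per layer. Filled symbols are signals above background, open symbols with arrows are upper bounds for signals raised to 50, the solid line is 100% and the dotted lines are the 2-fold limits. End keeps 19.5% of Nanog, 26.1% of Klf5 and 188% of Sall4, and Pme keeps 67.2% of Tbx3.

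Of the 10 factors 5 were above background in End and 4 in Pme, and with a background of 20 they were 6 in End and 7 in Pme, so the order of these layers depends on that setting. Nanog, Sall4 and Klf5 were called higher in End than in both other layers (1.86% of all genes), Tbx3 was higher in Pme than in both others (2.07%), and none was higher in Ect (0 of 10, against 1.82%). In Ect, Sall4 was below both other layers (1 of 10, against 1.17%), and none was lower in End (0 of 10, against 1.33%) or in Pme (0 of 10, against 0.401%). In all, 4 factors had a layer that was higher than both others. This count was 2 when probe sets were averaged as a geometric mean, and 2 with a 3-fold rule. In the End array all 8 epithelial markers were above background, with a summed signal of 15530, against 313 in Ect, 5741 in Pme and 2908 in SK7_ESC. Epcam and Cdh1, the epithelial adhesion genes that ES cells also express, had 1407 and 2204 in End, against 920.9 and 1321 in SK7_ESC. Definitive endoderm markers summed to 8993 in End, against 230.8 in SK7_ESC. The part of either list in the Nanog, Sall4 and Klf5 signals of End was not tested. Zfp42, Tfcp2l1, Klf2 and Klf4 were at 28.0, 16.8, 14.0 and 18.6 in End, all under background.

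In the adult tissues 10 of 10 factors were called lower than in SK7_ESC in Brain, in Liver and in Sk_muscle, where 15%, 16% and 15.2% of all genes were. All 10 were lower in all 3 tissues, against 8.89% of all genes, and 0 of 10 were higher in any of them, against 14.9%, 12.2% and 12.7%. The median log2 ratio of the 10 was at most -3.97 in Brain, -4.08 in Liver and -3.00 in Sk_muscle. Over genes above background in SK7_ESC it was -0.44, -0.53 and -0.44. Most ratios of the 10 are again bounds set by the SK7_ESC signal, so their medians are not compared between tissues. Above background in at least 1 adult tissue were Klf2, Klf4, Klf5 and Tbx3, 4 of 10 against 61.8% of all genes. There was 1 of 10 in Brain, 1 in Liver and 3 in Sk_muscle, against 49.9%, 42.9% and 43.3% of all genes. Klf2 had 309.8 in Sk_muscle, 48.3 in Brain and 48.6 in Liver, and kept 45.0% of its ES cell signal in Sk_muscle. Klf4 had 322.2 in Sk_muscle, 43.6 in Brain and 16.2 in Liver, and kept 36.1%. Klf2 was at least 6.20-fold and Klf4 at least 6.44-fold higher in Sk_muscle than in either other tissue, 2 of 10 factors against 7.47% of all genes. None of the 10 was higher in Brain (0 of 10, against 10.9%) or in Liver (0 of 10, against 7.71%) than in both other tissues, and none was lower in Brain (4.09%), Liver (4.19%) or Sk_muscle (2.62%). The other Klf4 probe set was also brightest in Sk_muscle, with 188.2 in Sk_muscle, 18.2 in Brain and 16.7 in Liver, but at 57.9% of its SK7_ESC signal it was not called lower in Sk_muscle. Against SK7_ESC, Klf2 was 2.22-fold and Klf4 2.77-fold lower in Sk_muscle, and for Klf2 the difference was 1.99-fold after quantile normalization and no longer called. Klf5 had 83.8 in Brain, 21.1 in Liver and 77.5 in Sk_muscle, again with the 1 bright probe set. Tbx3 had 11.5 in Brain, 64.0 in Liver and 22.5 in Sk_muscle, and its second probe set was under background in Liver, at 41.3. Pou5f1, Nanog, Sall4, Zfp42 and Prdm14 did not exceed 13.7 in any adult tissue.

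The summed signals of endothelial, smooth muscle, fibroblast and immediate early genes were, like Klf2 and Klf4, highest in Sk_muscle. That of blood and immune markers was not. Single genes could differ from their list, as Kdr of the endothelial list had 116.0 in Liver and 96.2 in Sk_muscle. Of 8 endothelial markers all 8 were above background in Sk_muscle, at 52.7 to 443.6 and with a summed signal of 1666, against 5 of 8 and 506.2 in Liver and 3 of 8 and 299.8 in Brain. Of 6 smooth muscle markers 4 were above background in Sk_muscle, with a sum of 5254 that includes 2957 from Des, a gene of skeletal muscle fibres too. In Liver and in Brain 1 of 6 was above background, with sums of 111.4 and 231.5. Of the 8 fibroblast and feeder markers 8 were above background in Sk_muscle (sum 12608), 6 in Liver (10179) and 3 in Brain (2218). Fn1 made 7441 of the Liver sum and Thy1 1771 of the Brain sum, against 310.9 and 78.3 for these genes in Sk_muscle. Of 7 blood and immune markers 3 were above background in Sk_muscle (sum 719.0), 4 in Liver (1309) and 3 in Brain (1088). Lyz2 had 366.4 in Sk_muscle, 217.4 in Liver and 77.3 in Brain, whereas Csf1r had 219.8, 857.0 and 899.1. A list of immediate early genes was added after the signals had been seen. Of 10 such genes 9 were above background in Sk_muscle (sum 5109), 7 in Liver (2175) and 6 in Brain (3201). Its members differed, since Nr4a1 had 1199 in Sk_muscle, 19.5 in Liver and 405.2 in Brain, and Egr1 had 82.0 in Sk_muscle, 331.8 in Liver and 1413 in Brain. The part of any of these in the Klf2 and Klf4 signals was not tested.

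**Figure D4:**
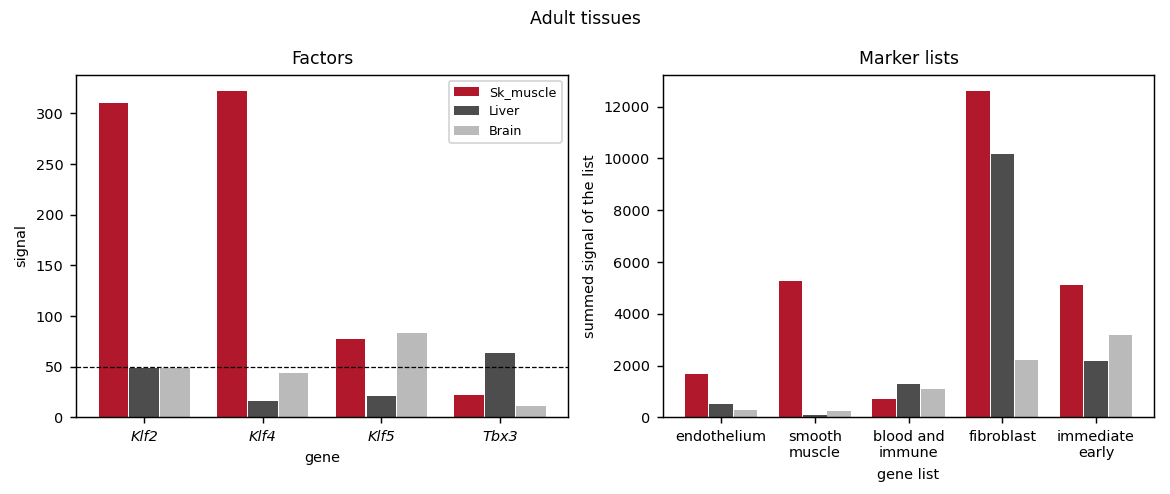
Left, signal of Klf2, Klf4, Klf5 and Tbx3 in Sk_muscle, Liver and Brain (1 array each, dashed line at the background of 50). Right, summed signal of 5 marker lists in the same arrays; Klf2 and Klf4 are at 309.8 and 322.2 in Sk_muscle, where the endothelial sum is 1666.

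Other genes of the pluripotency network mostly fell with the 10 factors. Of 19 measured partners, Ect had 14 lower than SK7_ESC, End 13 and Pme 14, where 4.89%, 3.81% and 4.55% of all genes were lower. None of the 19 was higher in any layer (0 of 19), against 6.63%, 4.89% and 6.75% of all genes. The median log2 ratio was at most -1.97 for Ect, -1.97 for End and -2.91 for Pme, each a bound set by the SK7_ESC signal of 1 gene. Among the largest decreases, Dppa5a, an RNA-binding protein of undifferentiated cells, decreased at least 111-fold in each layer, and Utf1, a chromatin protein of ES cells, at least 27.7-fold. Tdgf1, the Nodal co-receptor Cripto, had 8.8 in Ect, 773.7 in End, 37.6 in Pme and 2788 in SK7_ESC, and like Nanog was above background in End alone of the layers. Nr0b1 and Esrrb, nuclear receptors of the naive network, were under background in all layers, at most 3.7 and 26.7, against 561.8 and 185.0 in SK7_ESC. Sox2, the partner of Oct3/4 that neural progenitors also use, had 2369 in Ect, 52.1 in End, 167.3 in Pme and 3030 in SK7_ESC, and was not called lower in Ect. Lin28a, an RNA-binding protein that blocks let-7 maturation, had 448.3 in Ect, 1542 in End, 1049 in Pme and 898.3 in SK7_ESC, and was called lower in Ect alone, where it was just past the limit. Rif1 was lower in Ect and Pme, and in End the decrease of 1.99-fold was not called. Zfp281, Trim28 and Thap11, chromatin and zinc finger cofactors used in many cells, were called in no layer, and Foxd3 was under background throughout. In Brain 16 of the 19 were lower than in SK7_ESC, in Liver 15 and in Sk_muscle 17, against 15%, 16% and 15.2% of all genes, and 1 was higher. This was Nr5a2, which regulates bile acid synthesis in hepatocytes, with 641.7 in Liver against 152.5 in SK7_ESC.

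Genes of the LIF pathway, through which Stat3 induces Klf4 in ES cells, were mostly lower where called in Ect and End, and went both ways in Pme. Of 12 genes, Ect had 6 lower and 1 higher than SK7_ESC, End had 6 lower and 1 higher, and Pme had 4 lower and 4 higher. The shares over all genes were 4.89% lower and 6.63% higher for Ect, 3.81% and 4.89% for End, and 4.55% and 6.75% for Pme. The median log2 ratio of the 12 was -0.84 for Ect, -1.11 for End and 0.06 for Pme. Socs3, the feedback inhibitor induced by Stat3, had 169.7 in Ect, 108.0 in End, 337.8 in Pme and 1185 in SK7_ESC, and was lower in each. Gbx2, a Stat3 target, had 142.3 in Ect, 4.6 in End, 3.5 in Pme and 188.3 in SK7_ESC. The kinase gene Jak2 went against the list and was higher in all 3 layers, at 173.1 in Ect, 122.1 in End, 147.4 in Pme, against 36.4 in SK7_ESC. The receptor genes Lifr and Il6st were higher in Pme, at 566.7 and 389.5, against 278.5 and 170.7 in SK7_ESC, but Lifr was lower in Ect at 114.4 and Il6st lower in End at 72.6. Genes of the primed epiblast, the state that follows the naive one, were high in End. Of 11 measured, 6 were higher in End than in SK7_ESC and 1 was lower, whereas 2 were higher and 2 lower in Ect and 1 was higher and 3 lower in Pme. In End 4.89% of all genes were higher and 3.81% lower. Eomes and Foxa2, which are among the 6, are also in the definitive endoderm list, whose 7 genes were all higher in End. Fgf5, the classical marker of this state, had 24.0 in Ect, 1376 in End, 0.5 in Pme and 1.4 in SK7_ESC, and was at least 27.5-fold higher in End. Otx2 had 11.7 in Ect, 2406 in End, 0.7 in Pme and 53.5 in SK7_ESC, and Eomes was at least 24.9-fold higher in End. Pou3f1 went the other way in End, where it was under background at 33.9, against 133.0 in SK7_ESC. Of 9 genes of extraembryonic lineages, Ect had 0 higher and 2 lower than SK7_ESC, End had 3 higher and 2 lower, and Pme had 3 higher and 1 lower, to be read against the same shares over all genes as for the LIF pathway. The 3 higher in End were Gata4, Gata6 and Sox17, and Sox17, at 2942 in End, is also in the definitive endoderm list. Gata6, which opposes Nanog in the inner cell mass, had 45.5 in Ect, 999.7 in End, 408.6 in Pme and 60.6 in SK7_ESC. Cdx2, which opposes Pou5f1 in trophectoderm, had 52.1 in Ect, 10.9 in End, 414.7 in Pme and 1.6 in SK7_ESC. Tfap2c was lower in all 3 layers, at most 69.4 against 348.4 in SK7_ESC.

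The nearest paralogs of the factors mostly had other patterns. Signals are compared here for 1 gene across arrays and not between genes. Of 4 Sall genes, Sall1 was most like Sall4 among the cultured samples, with 254.2 in Ect, 847.2 in End, 306.8 in Pme and 729.4 in SK7_ESC. Sall2 ran the other way and had 241.4 in Ect, 65.5 in End, 90.9 in Pme and 31.1 in SK7_ESC. Of 11 POU genes measured, Pou5f1 and Pou3f1 were above background in SK7_ESC, where 44.4% of all genes were. Pou3f3, a neural POU factor, had 1220 in Ect and 434.8 in Brain, against 17.3 in SK7_ESC. Of 16 Klf genes measured, Ect had 6 that were lower, End 5 and Pme 4, against 4.89%, 3.81% and 4.55% of all genes. These counts include the factors Klf2, Klf4 and Klf5. The others were Klf9, Klf10 and Klf16 in Ect, Klf3 and Klf9 in End, and Klf9 in Pme. Klf2, Klf4, Klf5 and Klf9 were lower in all 3 layers, and Klf3, Klf6 and others were not. Klf6 had 147.3 in Ect, 531.2 in End, 511.5 in Pme and 179.1 in SK7_ESC. Klf9, a hormone-responsive factor of many adult tissues, differed from the 3 pluripotency Klf genes in the adult arrays, with 2029 in Brain, 1644 in Liver and 3729 in Sk_muscle, against 1609 in SK7_ESC. Klf15, a regulator of liver and muscle metabolism, had 140.6 in Brain, 960.9 in Liver and 292.3 in Sk_muscle, against 62.6 in SK7_ESC.

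Among the 15 T-box genes measured, Tbx3 and Mga were above background in SK7_ESC, where 44.4% of all genes were. Eomes was bright in End at 1246, and Tbx4 and Tbx20 were called higher in Pme, at 146.8 and 136.9, against 13.0 and 11.3 in SK7_ESC. Tbx15 had 541.7 in Sk_muscle and Tbr1 204.7 in Brain. Of 11 Prdm genes Prdm14 was the sole one lower in any layer than in SK7_ESC. Prdm1 (Blimp1), which acts with Prdm14 in primordial germ cells, had 467.4 in End against 60.9 in SK7_ESC, and Prdm6 had 593.3 in Pme against 10 in SK7_ESC. Of the grainyhead-like genes, Tfcp2 and Ubp1 were above background in all 7 arrays, Grhl2 had 117.8 in End against 80.3 in SK7_ESC, and Tfcp2l1 alone was called lower in a layer. Yy1, from which Zfp42 derives, had 1113 in Ect, 1216 in End, 1186 in Pme and 1264 in SK7_ESC, and was called in no layer.

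The genes nearest to each factor were sought by the root mean square difference of their log2 signals, raised to background, over the 7 arrays. For Pou5f1 they were Fbxo15, an F-box gene of ES cells, at 0.12, and Utf1 at 0.22. For Zfp42 they were Dppa5a at 0.27 and Fbxo15 at 0.38. The genes nearest to Sall4 were Lin28a at 0.48 and Dnmt3b, a de novo DNA methyltransferase, at 0.49. Dnmt3b had 333.4 in Ect, 3480 in End, 599.1 in Pme and 1888 in SK7_ESC. For Nanog they were Upp1, a uridine phosphorylase gene, at 0.60 and L1td1, an RNA-binding protein gene, at 0.61. Upp1 had 802.9 in End against 2387 in SK7_ESC, and L1td1 100.8 against 1924. Tbx3 was nearest to Bnc2 at 0.18 and Steap1 at 0.21, which had 155.7 and 157.4 in Pme. Klf2 and Klf4 shared Abcc4 as their nearest gene, at 0.66 and 0.72, which had 175.2 in Sk_muscle against 565.1 in SK7_ESC. Second were Lgals3 for Klf2 at 0.68 and Gadd45a for Klf4 at 0.75. For Klf5 they were Zfp979 at 0.56 and Trim13 at 0.57. For Zfp42, Tfcp2l1 and Prdm14, which are above background in SK7_ESC alone, the likeness rests on that array. The likeness to Pou5f1 also rests mostly on SK7_ESC. Fbxo15 and Utf1 were under background in End, at 10.3 and 37.1, and Pou5f1 was just above it at 57.3. The nearest genes of Tfcp2l1 and Prdm14 were Zfp936 and Dmrt1 at 0.01 each, and Gjb5 and Inpp5d at 0.01 each.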

How the data were processed

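RNA was hybridized to Affymetrix mouse genome arrays. The authors deposited 1 linear intensity value per probe set for 45101 probe sets on 7 arrays. The paper describes a global normalization with an average signal of 100, but the deposited arrays averaged between 141.2 (Brain) and 204.2 (Sk_muscle). How probes were summarised is not stated in the sources used here. The labels and the methods name different RNA isolation kits. Probe sets were named from the platform annotation: 34958 have 1 gene symbol, 932 have several and 9211 are unnamed here. By Entrez identifier 34754 matched RefSeq genes of GRCm38.p6, with 0 symbols changed.

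Of several probe sets of a gene, the one brightest on average over the arrays on the log2 scale (signals under 1 set to 1) was used. There were 20 probe sets for the 10 factors. Background was 50 and the fold for a call 2. There were no replicates, so there are no p-values, and precision is limited by the number of arrays. The computation of calls was checked on simulated data. The members and lists were chosen with earlier results of these data known. All 10 factors are named, and from each list up to 3 genes with the largest ratios and those that go against it, while other list members, paralogs among them, were named after their values were seen. The 2 nearest genes leave out predicted genes. Promoters came from RefSeq. Alternatives were a background of 20 or 100, scaling to the same median, quantile normalization, the geometric mean of probe sets, leaving out probe sets marked as shared, and a 3-fold rule. Python 3.11.15, numpy 2.4.6, pandas 2.3.3 and matplotlib 3.10.9 were used.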

Additional observations from a re-analysis of the deposited data

Results flagged for a closer look

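The ratio of Sall4 to SK7_ESC differed in sign between the layers. Its log2 ratio was 0.91 in End, -1.66 in Ect and -0.30 in Pme. The values in End and Pme stayed under the 2-fold limit, so Ect alone was called. The difference between the layers was not tested, since there was 1 array each.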

How the results depend on the processing

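Of 420 ratios of a factor to SK7_ESC under the 7 alternatives, 376 kept their call, 43 were no longer called, 1 was newly called and none changed direction (0 reversed). Those lost came from Tbx3 and Prdm14 with a background of 100, from Klf5, Tfcp2l1 and Tbx3 with the geometric mean of probe sets, from Klf5 without shared-sequence probe sets, from Prdm14, Klf2 and Klf4 with a 3-fold rule, and from Klf2 in Sk_muscle after quantile normalization. Scaling to the same median moved the median log2 difference of all probe sets from SK7_ESC to -0.33 in Brain, from 0.21 as deposited. Lower than SK7_ESC were 10 factors for Ect, 9 for End, 8 for Pme and 10 for each adult tissue. With the geometric mean these counts were 7, 6, 6 and 7, where 8 were above background in SK7_ESC. With a background of 100 they were 8, 7, 7 and 8, without shared-sequence probe sets 9, 8, 7 and 9, and with a 3-fold rule 9, 8 and 7, with 9 in Brain, 9 in Liver and 7 in Sk_muscle. After quantile normalization 9 were lower in Sk_muscle. The following counts moved by over 1.5 times. With a background of 20, above background were 4 factors in Ect, 7 in Pme (6 in End, less than that limit), 4 in Brain, 3 in Liver and 5 in Sk_muscle, and 4 were higher in an adult tissue than in both others. With a background of 100 they were 3 in End, 2 in Pme, 0 in Brain and 0 in Liver. With the geometric mean they were 3 in End, 1 in Pme, 0 in Brain and 0 in Liver, and 2 were higher in a layer than in both others. Without shared-sequence probe sets 0 were above background in Brain. After quantile normalization 2 were above background in Liver, and 1, Sall4, was higher in another array than in SK7_ESC. With a 3-fold rule 2 were higher in a layer than in both others. Of the LIF list, lower genes were 3 in End and 2 in Pme with a background of 100, 3 in Ect with the geometric mean, and 2 in Ect and 2 in Pme with a 3-fold rule. Of the primed epiblast list they were 5 in Pme with a background of 20, 0 in End with a background of 100, 1 in Ect without shared-sequence probe sets and 0 in End with a 3-fold rule. Of the extraembryonic list they were 2 in Pme with a background of 20, 1 in Ect and 1 in End each with a background of 100, with the geometric mean and without shared-sequence probe sets, and 1 in Ect with a 3-fold rule. The cause of these shifts was not tested. Signals under 50 have no order. No paired analysis was possible because each group has 1 array and the labels carry no replicate numbers.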
